A study of Mus musculus with 50 samples.

Results

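*Nnt* encodes nicotinamide nucleotide transhydrogenase. It was chosen because its allele is partly deleted in the C57BL/6J substrain of laboratory mice and intact in C57BL/6N, so that it can mark the substrain from which that stretch of the genome came. The gene was located by its symbol in the GENCODE vM21 annotation, which gives this symbol to 2 of the 55487 gene IDs counted, ENSMUSG00000025453 and ENSMUSG00000116207. The enzyme sits in the inner mitochondrial membrane and uses the proton gradient to pass a hydride from NADH to NADP+, which supplies NADPH inside the organelle. Glutathione reductase and mitochondrial thioredoxin reductase spend this NADPH in the removal of peroxides. C57BL/6J mice lack several internal exons of the gene and make no functional protein, and the substrain is known for altered insulin secretion and mitochondrial redox balance.

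Poly-A RNA was sequenced from frontal cortex (frontal brain regions in embryos) of 50 mice, 5 wild-type (WT) and 5 *Setd1a*+/- (Het) at each of embryonic days 14 and 18 (E14, E18) and postnatal days 7, 35 and 70 (P7, P35, P70). Het mice carried a heterozygous loss-of-function allele of the histone methyltransferase gene *Setd1a* (tm1d, of knockout-first design), and all mice descended from crosses of heterozygous fathers with wild-type mothers. The labels give C57BL/6NTac as the strain of every mouse, whereas the study's methods describe a mixed background of this substrain with C57BL/6J. No label gives the *Nnt* genotype of a mouse. Each library is a separate mouse, so that p-values measure the spread between mice. The study's methods state that littermates were taken at postnatal ages and embryos from dissected dams, so that mice of an age may share a litter. No label used here gives the litter, and it was not part of any fit. The libraries held between 35507165 and 43907318 counts assigned to genes, with a median of 38626998.

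ENSMUSG00000025453 lies on the minus strand of chromosome 13 of GRCm38, between 119335448 and 119408997, with 7037 exonic bases in 5 annotated transcripts. ENSMUSG00000116207 lies inside it, between 119335528 and 119408952, and consists of 1 transcript (Nnt-206) with 3339 exonic bases, all of them overlapped by other annotated genes. Fragments over shared exons were counted for both IDs. The counts of the longer ID exceeded those of the nested ID by 0.517% to 6.75% of its own total (median 3.31%), so that both IDs give nearly the same measurement, and *Nnt* below means the longer ID unless the nested ID is named. The GRCm38 genome is that of C57BL/6J. The exons missing from this substrain are therefore not annotated, and the counts cover exons that both alleles share. They measure the abundance of *Nnt* RNA and do not read which allele a mouse carried.

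The missing exons belong between exons 7 and 8 of transcript Nnt-202, which has 17 annotated exons with the first one non-coding. In GRCm38 these exons are adjacent in the transcript, at chr13:119381676-119381863 and chr13:119374629-119374774, with an intron of 6901 bases between them. The sequence across their joint is given because a transcript of the C57BL/6J allele reads through it and one of the intact allele does not. It holds 60 bases of coding exon on each side (chr13:119381676-119381735 and chr13:119374715-119374774, minus strand, 5′ to 3′), with the exon 8 side in capitals.
Nnt-202 exon 7 to exon 8: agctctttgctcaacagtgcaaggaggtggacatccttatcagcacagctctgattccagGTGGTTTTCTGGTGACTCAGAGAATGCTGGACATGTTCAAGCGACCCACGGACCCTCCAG

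The gene targeted in the mice was examined first. *Setd1a* levels, as normalised read counts scaled by library size (CPM), at E14 lay between 119 and 136 in WT and between 128 and 150.2 in Het libraries, and at P7 between 70.2 and 76.2 in WT and between 76.4 and 83.7 in Het libraries. At E18 the ranges were 85.4 to 100.02 and 96.9 to 117, at P35 81.7 to 91.7 and 88.2 to 91.9, and at P70 81.6 to 92.0 and 76.6 to 97.8, in WT and Het libraries respectively. The level of *Setd1a* was higher in Het mice by 0.10 on the log2 scale with age as a covariate (SE 0.025, edgeR adjusted p = 0.00679). At P70 the *Setd1a* difference was -0.03 (SE 0.053), against 0.08 to 0.19 at the other ages. Another annotated gene overlaps 52.3% of its exonic bases, and the counts cover the gene as a whole, with no value per exon. They therefore do not check the genotype labels, and the cause of the higher level was not tested. The paper cites an earlier report of reduced Setd1a protein in Het cortex.

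All 8 markers of cortical identity were detected in every library. Some libraries stood apart. *Xist*, the RNA of the inactive X chromosome, reached 60159 counts in WT replicate 5 at E14 and 55644 in WT replicate 2 at E18, and 4 genes of the Y chromosome summed to 0 and 11 counts in these. In the other 48 libraries *Xist* did not exceed 27 counts and the Y chromosome genes summed to 4711 or more. The study's methods describe male mice. WT replicate 2 at P7 deviated from its group mean with a standard deviation over genes of 0.55 (log2), against 0.22 to 0.27 in the other 9 libraries of that age. In this library the 5 oligodendrocyte markers summed to 1278 CPM against 117 to 174 in the other 9, the 5 choroid plexus markers to 619 CPM against 2.93 to 4.37, and the 8 markers of cortical identity to 567 CPM against 1005 to 1181. The most abundant members of the oligodendrocyte and choroid plexus lists were *Mbp*, a myelin protein, and *Ttr*, the transthyretin of the choroid plexus. The 5 astrocyte markers, led by *Slc1a3*, summed to 1468 CPM against 840.2 to 983, the 5 striatal markers, led by *Ppp1r1b*, to 59.8 CPM against 82.3 to 347, and the 5 *Hox* genes that mark hindbrain, led by *Hoxb2*, to 3.38 CPM against at most 0.313. Group means, gaps, age differences and within-age genotype differences of *Nnt* are given with and without these libraries. For the genotype difference over all ages a range over settings is given, the fit without them included.

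Every library held *Nnt* RNA, from 365 to 1972 counts with a median of 755.5. Counting error alone at this depth corresponds to a standard deviation of 0.03 to 0.08 on the log2 scale. At E14 the level in WT replicates 1 to 5 was 38.7, 30.0, 34.98, 38.3 and 46.6 CPM. In Het replicates 1 to 5 it was 45.4, 31.3, 31.1, 33.9 and 34.7 CPM. The highest E14 libraries were WT replicate 5, which is one of those with *Xist* counts, and Het replicate 1, and the genotypes overlapped over nearly the whole range. At E18 the WT libraries held 20.5, 18.3, 19.6, 17.6 and 19.4 CPM. The Het libraries of that age held 19.7, 20.1, 17.9, 19.7 and 21.4 CPM. All 10 libraries lay close together at this age, with the ratio of highest to lowest at 1.21, and WT replicate 2, the other library with *Xist* counts, lay inside the range.

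After birth *Nnt* was lowest at P7, where WT replicates 1 to 5 held 11.9, 15.5, 10.2, 11.1 and 14.5 CPM. Het replicates of that age held 13.6, 10.1, 10.3, 14.04 and 11.9 CPM. Libraries of both genotypes were found at each end of the P7 range, and WT replicate 2, the library that stood apart in its cell type markers, was the highest. At P35 the WT libraries held 18.8, 16.9, 23.7, 23.5 and 17.3 CPM, and the Het libraries 17.7, 26.9, 18.6, 25.04 and 18.8 CPM. High and low libraries were again present in both genotypes, and the ratio of highest to lowest was 1.59. At P70 the WT libraries held 25.3, 20.5, 21.2, 19.5 and 20.6 CPM. The Het libraries held 27.2, 27.3, 27.3, 27.3 and 18.8 CPM. Het replicates 1 to 4 at P70 lay above every WT library of that age, and Het replicate 5 lay below every one of them.

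**Figure D1:**
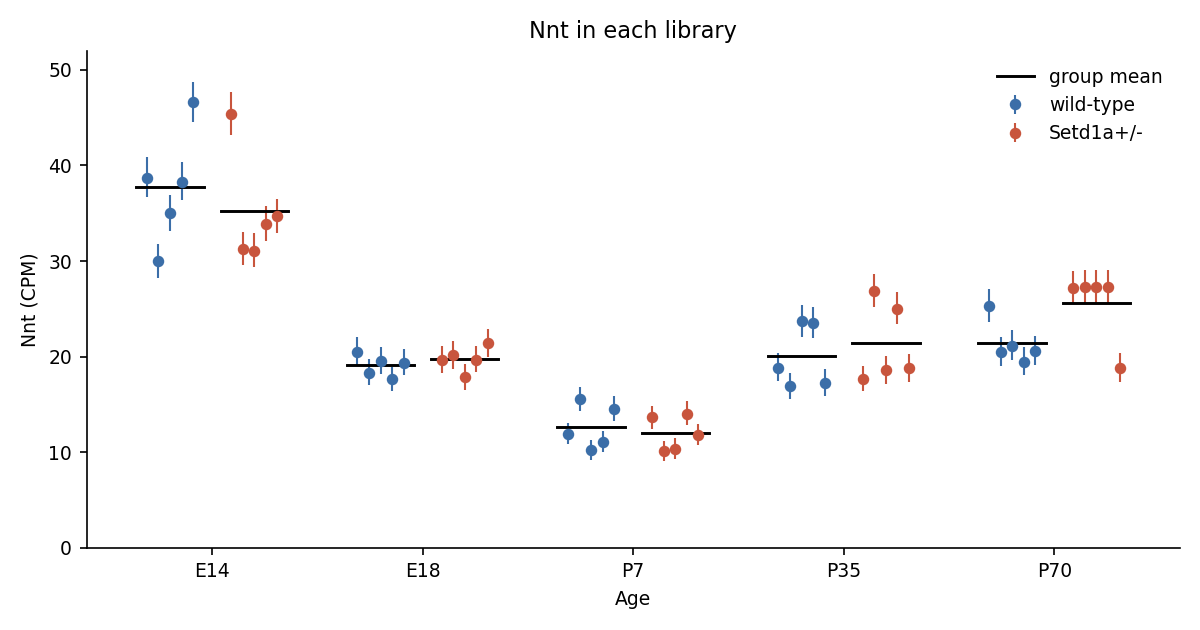
*Nnt* level (CPM, vertical axis) in each of the 50 libraries by age and genotype, with 95% Poisson intervals for counting error and a line at each group mean. WT and Het libraries overlap at every age, and at P70 4 of 5 Het libraries lie above all WT libraries and Het replicate 5 below them.

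The mean level (± SD, n = 5) was 37.7 ± 6.08 CPM in WT and 35.3 ± 5.88 CPM in Het mice at E14, and 19.1 ± 1.12 and 19.7 ± 1.27 CPM at E18. It was 12.7 ± 2.28 and 12.0 ± 1.82 CPM at P7, 20.04 ± 3.33 and 21.4 ± 4.24 CPM at P35, and 21.4 ± 2.26 and 25.6 ± 3.78 CPM at P70. Without the libraries that stood apart the WT means (n = 4) were 35.5 ± 4.05 CPM at E14, 19.3 ± 1.196 CPM at E18 and 11.9 ± 1.87 CPM at P7, which differed from the Het means by less than either SD. From highest to lowest the groups were ordered E14 WT, E14 Het, P70 Het, P70 WT, P35 Het, P35 WT, E18 Het, E18 WT, P7 WT and P7 Het. Neighbours in this order overlapped in their ranges, except that all E14 Het libraries lay above all P70 Het libraries and all E18 WT libraries above all P7 WT libraries. WT and Het groups of the same age were thus adjacent at every age.

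*Nnt* fell by 0.91 on the log2 scale from E14 to E18 (SE 0.092, adjusted p = 4.42e-12, edgeR) and by 0.66 from E18 to P7 (SE 0.093, adjusted p = 2.76e-08), where 73.4% and 76.1% of the 16330 protein-coding genes tested also changed. It rose by 0.75 from P7 to P35 (SE 0.093, adjusted p = 1.18e-09; 76.1% of genes changed). From P35 to P70 the difference of 0.18 (SE 0.092) missed the threshold (adjusted p = 0.234), against 9.74% of genes that passed. Without the 3 libraries that stood apart these differences were -0.86, -0.71, 0.78 and 0.18 (edgeR adjusted p = 5.38e-11, 1.03e-08, 4.54e-10 and 0.181). The RNA of cell type markers moved with age too. The 5 oligodendrocyte markers summed to 47.8 ± 5.595, 88.5 ± 29.2, 254 ± 360.05, 5257 ± 475 and 3802 ± 284 CPM (mean ± SD, n = 10) at E14, E18, P7, P35 and P70, the P7 value being 141 ± 20.2 CPM (n = 9) without WT replicate 2. The 5 astrocyte markers summed to 279 ± 43.7, 422 ± 72.1, 960 ± 184, 1519 ± 61.8 and 1558 ± 45.9 CPM. The 8 markers of cortical identity summed to 2933 ± 190.3, 2436 ± 378, 1038 ± 175, 751 ± 41.0 and 756 ± 38.7 CPM. The 5 erythroid markers, led by *Hbb-bs*, summed to 632 ± 306, 226 ± 100.1, 161 ± 62.5, 304 ± 114 and 118 ± 50.4 CPM. Their sum fell, fell and rose from E14 to P35 as *Nnt* did. With edgeR 5 passed as lower from E14 to E18, only 2 as lower from E18 to P7 and 5 as higher from P7 to P35. From P35 to P70 5 were lower. The 5 microglial markers, led by *Csf1r*, summed to 45.9 ± 11.8, 50.9 ± 13.4, 93.7 ± 5.75, 223 ± 11.5 and 229 ± 7.59 CPM, and the 5 striatal markers to 83.7 ± 14.5, 170.3 ± 56.3, 147 ± 91.1, 686 ± 192.7 and 705 ± 262 CPM, and all 5 of each list rose from P7 to P35. The 5 endothelial markers, led by *Cldn5*, summed to 161 ± 128, 199 ± 70.4, 194.7 ± 12.0, 199 ± 14.3 and 219 ± 26.3 CPM, and the 5 choroid plexus markers to 222 ± 192.8, 46.7 ± 88.0, 65.1 ± 194.6, 7.51 ± 1.82 and 12.02 ± 10.7 CPM, the P7 value being 3.61 ± 0.427 CPM (n = 9) without WT replicate 2. Their part in the *Nnt* differences was not tested, and in bulk tissue fewer cells of a type and less RNA per cell cannot be told apart.

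Whether *Nnt* levels fell into discrete classes was examined from the gaps between neighbouring libraries when the 10 libraries of an age were ordered by level. The widest gap at E14 was 0.23 on the log2 scale, between 38.7 and 45.4 CPM, with 4 WT and 4 Het libraries below it and 1 of each genotype above it. At E18 it was 0.08, between 18.3 and 19.4 CPM, with 2 WT and 1 Het libraries below and 3 WT and 4 Het libraries above. At P7 it was 0.19, between 11.9 and 13.6 CPM, with 3 libraries of each genotype below and 2 of each above. None of these 3 gaps took up more of the range from lowest to highest library than is common among genes: the shares were 0.360, 0.288 and 0.311, and 29.9%, 58.1% and 62.8% of tested genes had a share at least as large. Without the library that stood apart at each of these ages the widest gaps were 0.23, 0.12 and 0.19, with shares of 0.3825, 0.425 and 0.3665 that 30.9%, 18.2% and 32.5% of tested genes reached.

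The gaps in older cortex were wider. At P35 the widest gap was 0.32 on the log2 scale, from 18.8 to 23.5 CPM (1.25-fold), with 3 WT and 3 Het libraries below it and 2 WT and 2 Het libraries above it. At P70 it was 0.26, from 21.2 to 25.3 CPM (1.20-fold), with 4 WT and 1 Het libraries below and 1 WT and 4 Het libraries above. These gaps took up 0.479 of the range at both ages, a share reached by 6.24% of tested genes at P35 and 7.34% at P70. At P35 the sides of the gap held equal numbers of each genotype, whereas at P70 the upper side held mostly Het libraries. The P35 and P70 gaps overlapped in level, between 21.2 and 23.5 CPM, whereas no E18 library exceeded 21.4 CPM, no P7 library exceeded 15.5 CPM and no E14 library lay below 30.0 CPM.

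**Figure D2:**
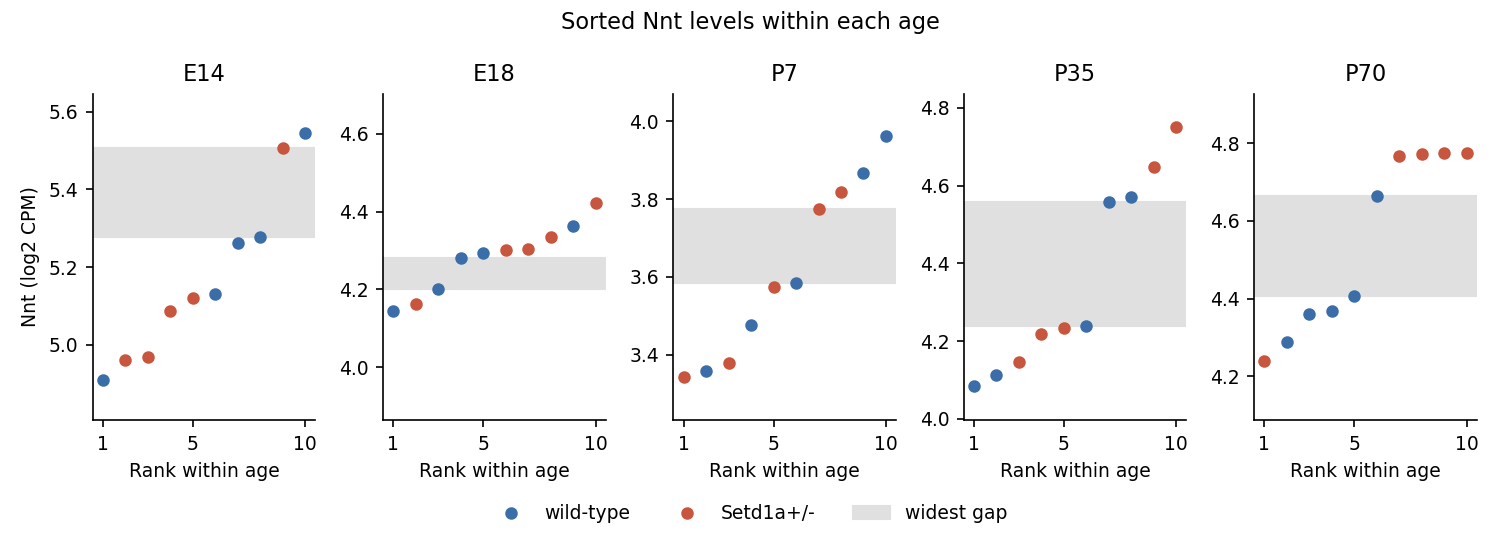
*Nnt* level (log2 CPM, vertical axis) against the rank of each library within its age, by genotype, with the widest gap shaded and the same log2 height in each panel. The shaded gaps at P35 and P70 (0.32 and 0.26) are wider than that at E18 (0.08).

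The spread of *Nnt* within groups was above that of most genes of similar level. Its within-group standard deviation was 0.21 on the log2 scale against a median of 0.15 over all genes tested, 61.9% of which were lower. Among 2451 genes of similar level the median was 0.12 and 81.3% were lower than *Nnt*. When all 50 libraries were ordered by their deviation from the group mean, the widest gap in *Nnt* was 0.11. It took up 0.137 of the range, against a median of 0.178, and 73.0% of tested genes had a share at least as large. This gap set 1 library, P70 Het replicate 5, below the other 49.

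*Nnt* levels did not pass the threshold for a genotype difference. With age as a covariate the Het minus WT difference was 0.05 on the log2 scale (SE 0.059, edgeR adjusted p = 0.827), in a comparison in which 723 genes, 4.43% of those tested, passed the threshold, 111 of them higher and 612 lower in Het mice. The nested ID of *Nnt* gave 0.05 (edgeR adjusted p = 0.801). Permuting genotype within each age gave a difference of 0.04 with a two-sided permutation p of 0.470. The difference did not pass the threshold for a dependence on age either (interaction, edgeR adjusted p = 0.970). For that interaction 0 genes (0.00%) passed with edgeR, while 1098 had an unadjusted p under 0.05, and 0 passed with limma-voom and 21 with DESeq2.

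Within ages the differences had both signs. Het minus WT was -0.10 at E14 (SE 0.13, adjusted p = 0.836), 0.05 at E18 (SE 0.13, adjusted p = 0.920) and -0.08 at P7 (SE 0.13, adjusted p = 0.946) by edgeR, where 0.129%, 0.110% and 0.735% of tested genes passed the threshold. These shares depended on single libraries, being 4.55% at E14 without WT replicate 5, 0.0427% at P7 without WT replicate 2, and between 0.0426% and 0.920% at E18 when any 1 library was left out. Without WT replicate 5, one of the libraries with *Xist* counts, the E14 difference was -0.01 (edgeR adjusted p = 0.979), and without WT replicate 2 the E18 difference was 0.04 (edgeR adjusted p = 0.948). Leaving out other libraries of the same age moved the E14 difference either way. It was -0.205 without Het replicate 1 and -0.17 without WT replicate 2, but most other E14 libraries moved it towards 0, at most to -0.0555 without Het replicate 3. The E18 difference ran from 0.02 to 0.085 over all fits without 1 library. The P7 difference changed its sign to 0.01 without WT replicate 2, the library that stood apart (edgeR adjusted p = 1). At P35 the difference was 0.09 (SE 0.13, adjusted p = 1, edgeR), and it changed sign, to -0.0004, without Het replicate 2, the highest library of that age. For P35 0 genes (0.00%) passed with edgeR, 550 had an unadjusted p under 0.05, and 0 passed with limma-voom and 11 with DESeq2.

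Cell type markers differed by genotype within some ages. At P7 4 of the 43 markers tested were lower in Het mice with edgeR, the myelin genes *Mbp* (-1.47, adjusted p = 0.0177), *Mag* (-2.14, adjusted p = 0.0122) and *Mobp* (-3.63, adjusted p = 0.00322) and the choroid plexus gene *Ttr* (-9.27, adjusted p = 0.0435), against 0.735% of all genes. With limma-voom 0 and with DESeq2 3 of the 43 passed at P7, and without WT replicate 2, the library that stood apart, 0 passed with edgeR (0.0427% of all genes) and 1 had an unadjusted p under 0.05. At E14 and E18 0 of the 43 passed with edgeR and limma-voom, 7 and 8 had an unadjusted p under 0.05 (11.6% and 11.4% of all genes), and 0 and 2 (*Folr1* and *Ttr*) passed with DESeq2 (0.698% and 0.680% of all genes). The endothelial gene *Cldn5* differed by 1.012 at E14 and -0.92 at E18 (edgeR adjusted p = 0.124 and 0.204). Without the 3 libraries that stood apart 5 of the 43 passed at E14 with edgeR (*Cldn5*, *Flt1*, *Gja1*, *Kdr* and *Pecam1*), in fits in which 7.11% of all genes passed, and 2 at E18 (*Folr1* and *Ttr*), where 1.17% of all genes passed. At P35 and P70 0 of the 43 passed with edgeR, limma-voom or DESeq2, and 0 and 2 had an unadjusted edgeR p under 0.05 (3.37% and 6.55% of all genes). The part of these cell types in the *Nnt* values was not tested.

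At P70 the difference was 0.26 (SE 0.13, edgeR adjusted p = 0.769), with 0.233% of tested genes past the threshold (0.0426% to 0.560% when any 1 library was left out), and the nested ID of *Nnt* gave 0.27 (edgeR adjusted p = 0.744). The exact two-sided permutation test, in which the possible divisions of 10 libraries allow a smallest p of 0.00794, gave p = 0.143 at P70 and 0.516, 0.413, 0.627 and 0.563 at E14, E18, P7 and P35 (adjusted over the 5 ages, 0.627 at each). The P70 value depended on single libraries. Without Het replicate 5 the exact permutation p was 0.0159, the edgeR difference was 0.35 and its adjusted p was 0.284, and without WT replicate 1 the exact permutation p was 0.0476, the edgeR difference 0.33 and its adjusted p 0.626. The adjusted p therefore stayed above the threshold with and without each of these libraries. A p above the threshold does not show that the genotypes were alike at P70. There 4 of 5 Het libraries exceeded all 5 WT libraries, and at the other ages at most 2 libraries of a genotype exceeded all of the other. The share of tested genes with such a separation was not counted.

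**Figure D3:**
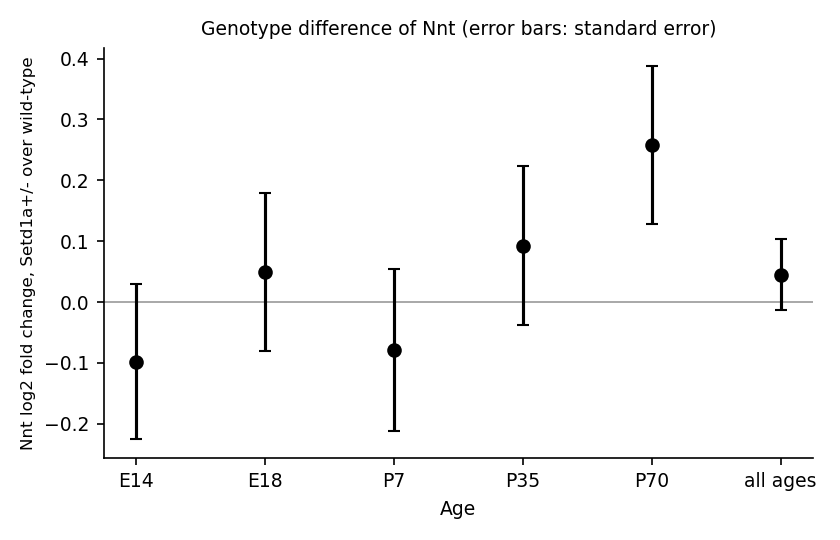
Het minus WT difference in *Nnt* (log2, vertical axis; bars are ± 1 SE from edgeR) at each age, with 5 mice per genotype, and over all ages with age as a covariate. Values run from -0.10 at E14 to 0.26 at P70, and the value over all ages is 0.05.

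*Nnt* is one of several sources of NADPH in the mitochondrial matrix. Scaled by exonic length (RPKM), its level was set beside those of the other genes of mitochondrial NADPH supply, 11 in all (enzymes that make it, the NAD kinase gene *Nadk2*, and the folate enzymes *Shmt2* and *Mthfd1l* that act beside them). It averaged 3.20 over the libraries and was 5.19, 2.76, 1.75, 2.94 and 3.34 at E14, E18, P7, P35 and P70. The most abundant of the 11 genes were *Glud1*, glutamate dehydrogenase, at 49.4 RPKM, *Idh2*, the NADP-dependent isocitrate dehydrogenase, at 25.9 and *Shmt2*, a serine hydroxymethyltransferase, at 12.7. Levels close to that of *Nnt* were those of *Me2*, a malic enzyme (3.20 RPKM), *Mthfd2* and *Mthfd2l*, folate dehydrogenases (3.17 and 3.02), and *Aldh1l2*, a formyltetrahydrofolate dehydrogenase (3.64). The place of *Nnt* in this order depends on the annotated length, since the nested ID, with nearly the same counts over 3339 bases, averaged 6.49 RPKM, next to *Nadk2* at 6.51. *Idh2* stood at 55.2 RPKM at E14 and 12.3 at P70, and *Aldh1l2* at 6.17 and 0.683, whereas the malic enzyme gene *Me3* stood at 0.131 and 4.75. *Nnt* was lowest at P7, as were *Nadk2* (5.27 RPKM) and *Me2* (2.93 RPKM). *Nadk2* also fell from E14 to E18 and from E18 to P7 and rose from P7 to P35 (edgeR adjusted p = 0.0489, 0.00189 and 5.94e-11). The differences in *Me2* from E18 to P7 and from P7 to P35 did not pass (edgeR adjusted p = 0.319 and 0.127).

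**Figure D4:**
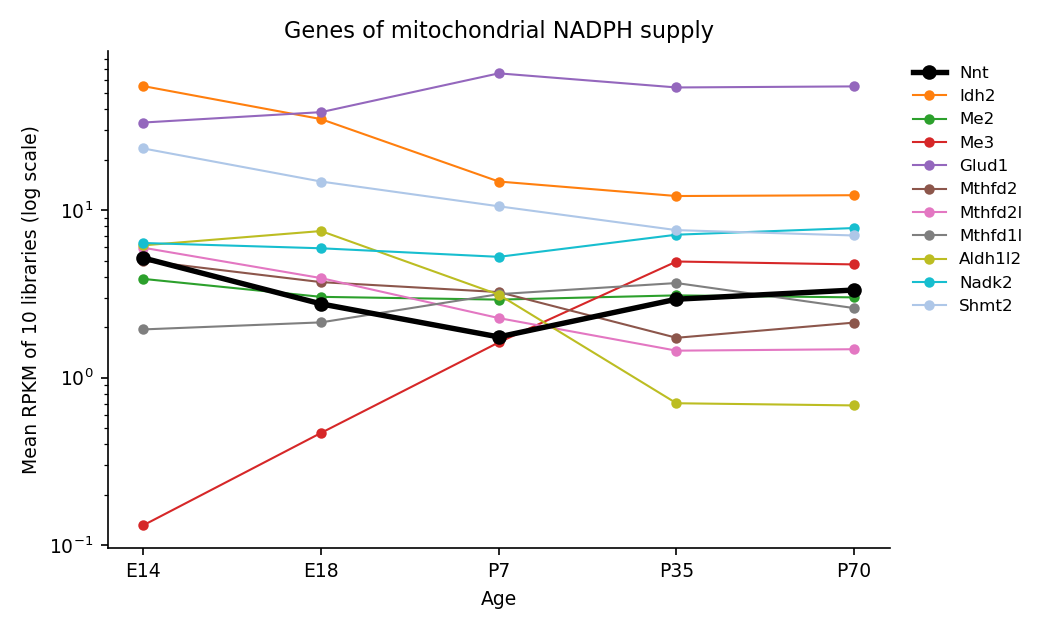
Mean level (RPKM, log axis) of *Nnt* and the other genes of mitochondrial NADPH supply (11 in all) at each age, 10 libraries per age. *Nnt* stands at 5.19 at E14 and 1.75 at P7, and at 3.34 at P70.

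Of these 11 genes, 3 rose and 7 fell from E14 to E18, *Nnt* among the latter, where 73.4% of all tested genes changed, and again 3 rose and 7 fell from E18 to P7 (76.1% of all genes). From P7 to P35 4 rose, *Nnt* among them, and 6 fell (76.1%), and from P35 to P70 1 rose and 1 fell (9.74%). By genotype, 0 of the 11 passed the threshold with edgeR, DESeq2 or limma-voom, against 4.43% of all genes with edgeR, and 1 (*Mthfd1l*) had an unadjusted p under 0.05, as did 14.5% of all genes tested; their median difference was 0.02 against 0.00 over all genes tested. Of 11 genes of mitochondrial NADPH use and the antioxidant enzymes around it, *Sod2* among them (median -0.01), *Txnrd2*, the mitochondrial thioredoxin reductase, rose by 0.13 in Het mice (SE 0.029, edgeR adjusted p = 0.0031). *Glrx2*, a mitochondrial glutaredoxin, fell by 0.09 (SE 0.022, edgeR adjusted p = 0.00535), and the other 9 did not pass (4.43% of all genes passed). Of 9 genes of cytosolic NADPH supply (median 0.01), 2 passed, against the same 4.43% of all genes. *Pgd*, phosphogluconate dehydrogenase of the pentose phosphate pathway, was higher by 0.08 (SE 0.022, edgeR adjusted p = 0.0349), and *Pgls*, the lactonase before it, fell by 0.11 (SE 0.029, edgeR adjusted p = 0.0163), whereas *G6pdx*, *Taldo1* and *Tkt* of the same pathway did not pass (edgeR adjusted p = 0.843, 0.361 and 0.870). The *Pgd* call was lost when any of E14 Het replicates 1 or 4, P7 Het replicate 5, P35 WT replicate 1 or P35 Het replicates 3 or 5 was left out (adjusted p up to 0.058) and with scaling to library size only (0.07, adjusted p = 0.152), and the *Pgls* call with limma-voom (adjusted p = 0.0532). With age as a covariate, 0 of the 43 cell type markers tested passed by genotype with edgeR or limma-voom and 1 (*Ttr*) with DESeq2, while 3 (*Aldoc*, *Folr1* and *Ttr*) had an unadjusted p under 0.05, against that share of 14.5% over all genes.

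*Nnt* was set beside other genes reported to differ between C57BL/6J and C57BL/6N. Of 5 genes with known sequence variants, which are *Nnt*, *Crb1* (retinal degeneration in C57BL/6N), *Cyfip2*, *Nlrp12* and *Gabra2*, 0 passed the threshold by genotype with edgeR, DESeq2 or limma-voom, and 0 had an unadjusted edgeR p under 0.05. Of 3 genes reported to differ in expression, *Wdfy1*, *Ide* and *Entpd4*, 1 passed. Over all genes tested 4.43% passed in this comparison with edgeR and 14.5% had an unadjusted p under 0.05. *Wdfy1*, an endosomal adaptor protein on chromosome 1, fell by 0.32 in Het mice (SE 0.096, edgeR adjusted p = 0.0398). *Entpd4*, with a mean of 1.11 CPM and a near-identical neighbouring copy (*Entpd4b*), and *Nlrp12*, with a mean of 0.0841 CPM, were too low to be described by library.

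*Wdfy1* showed wider gaps than *Nnt*. At E14 WT replicates 2, 3 and 4 and Het replicates 2 and 4 held 40.1 to 51.0 CPM and the other 5 libraries 19.1 to 24.7 CPM. At E18 WT replicate 4 held 52.9 CPM against 26.4 to 30.8, and at P7 WT replicate 3 held 40.2 CPM against 22.1 to 27.2. At P35 WT replicates 3 and 5 held 34.6 and 37.3 CPM against 18.6 to 20.96, and at P70 WT replicates 1 to 4 held 34.1 to 36.3 CPM against 18.7 to 22.0. The gaps spanned 1.62, 1.72, 1.48, 1.65 and 1.55-fold from E14 to P70, against 1.17, 1.06, 1.14, 1.25 and 1.20-fold for *Nnt*. They took up 0.492, 0.778, 0.653, 0.724 and 0.667 of the range, and shares at least as large were found in 6.67%, 0.196%, 9.02%, 0.171% and 0.429% of tested genes. Over the 5 ages 13 libraries lay above the gap of their age, 11 WT and 2 Het. The genotype call for *Wdfy1* lay near the threshold. It was lost in 25 of 50 fits that left out 1 library, for each of those 11 WT libraries and for 14 Het libraries, with adjusted p between 0.0129 and 0.0811 over all 50 fits while the difference stayed between -0.35 and -0.28. It was also lost with limma-voom (-0.27, adjusted p = 0.124) and when all annotated genes were tested (-0.32, adjusted p = 0.0514). The libraries above the *Wdfy1* gap were for the most part not those above the *Nnt* gap. At P70 WT replicate 1 was above both, whereas WT replicates 2 to 4 were above the *Wdfy1* gap and below the *Nnt* gap, and Het replicates 1 to 4 the reverse. At P35 WT replicate 3 was above both gaps, and WT replicate 5 only that of *Wdfy1*.

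*Gabra2*, the alpha-2 subunit of the GABA-A receptor, carries an intronic single-base deletion in C57BL/6J that lowers its expression. At P35 WT replicates 2 and 5 and Het replicate 2 held 98.7, 95.4 and 100.2 CPM and the other 7 libraries 59.9 to 69.7 CPM, a gap of 0.45 on the log2 scale that took up 0.611 of the range (reached by 0.943% of tested genes). Het replicate 2 was also above the *Nnt* gap of that age, whereas WT replicates 2 and 5 were below it. At P7 WT replicate 2, the library that stood apart, held 69.7 CPM and the others 34.7 to 42.8, and at P70 WT replicate 2 held 100.6 CPM and the others 57.9 to 82.6. The shares of the range were 0.700 at P7 and 0.3575 at P70, reached by 5.91% and 31.5% of tested genes. Levels at E14 and E18 spread more widely, with ratios of highest to lowest of 3.10 and 2.74, but without a distinct gap (shares of 0.260 and 0.268, reached by 73.8% and 68.7% of tested genes). The genotype difference in *Gabra2* was -0.17 (SE 0.11, edgeR adjusted p = 0.496).

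*Ide*, the insulin-degrading enzyme, is reported at varied copy number within C57BL/6J. At P35 WT replicates held 98.2, 91.7, 97.8, 69.3 and 91.6 CPM and Het replicates 69.7, 94.1, 67.5, 43.6 and 44.5 CPM. The lowest values were those of Het replicates 4 and 5, and the widest gap, 0.60 on the log2 scale, separated these from the rest, with a share of 0.5115 of the range that 3.91% of tested genes reached. At E14, E18, P7 and P70 the widest gaps in *Ide* were 0.37, 0.19, 0.34 and 0.26, and their shares were reached by 49.0%, 8.53%, 15.2% and 29.2% of tested genes. In *Nnt* Het replicate 4 was above and Het replicate 5 below the gap of that age. The genotype difference in *Ide* was -0.12 (SE 0.085, edgeR adjusted p = 0.604). The within-group standard deviations of *Wdfy1*, *Gabra2* and *Ide* were 0.35, 0.40 and 0.31 (log2), higher than that of *Nnt* at 0.21, and exceeded those of 95.9%, 98.5% and 98.6% of genes of similar level. *Crb1* and *Cyfip2* differed by 0.14 and 0.01 between genotypes (edgeR adjusted p = 0.739 and 0.928).

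**Figure D5:**
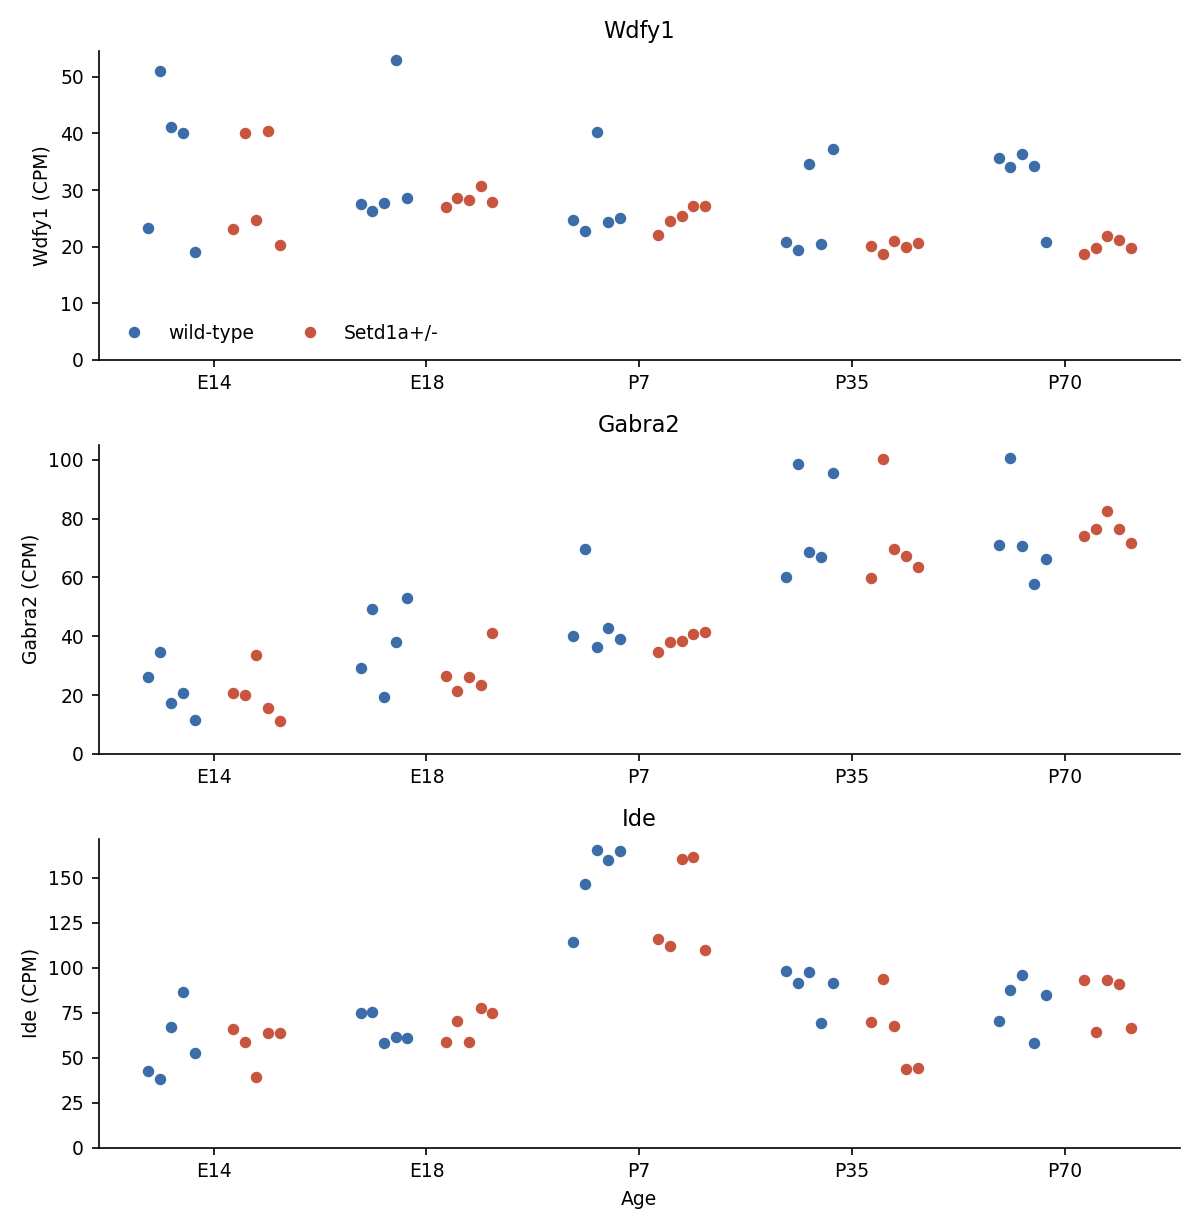
Level (CPM, vertical axes) of *Wdfy1*, *Gabra2* and *Ide* in each of the 50 libraries by age and genotype. At P70 *Wdfy1* stands between 34.1 and 36.3 in WT replicates 1 to 4 and between 18.7 and 22.0 in the other libraries.

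The genes next to *Nnt* would travel with it in a cross. Within 1 Mb on either side lie 25 protein-coding genes, of which 11 were tested: *Mrps30*, *B430218F22Rik*, *Fgf10*, *Paip1*, *4833420G17Rik*, *3110070M22Rik*, *Tmem267*, *Ccl28*, *Hmgcs1*, *Nim1k* and *Zfp131*. By genotype 0 of the 11 passed the threshold with edgeR, DESeq2 or limma-voom, and 0 had an unadjusted edgeR p under 0.05. Over all genes tested 4.43% passed with edgeR and 14.5% had such an unadjusted p. Their differences, 10 of them below 0 (the median over all genes tested was 0.00), ran from -0.29 for the chemokine gene *Ccl28* (SE 0.15, edgeR adjusted p = 0.348) to 0.03 for *Hmgcs1*, a synthase of the cholesterol pathway (edgeR adjusted p = 0.758). Of these 10, *Paip1* (-0.0021) and *Mrps30* (-0.0149) turned sign under other settings.

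The genes whose levels moved most like *Nnt* among mice of the same group were found from the correlation of deviations from group means over the 50 libraries, which share their depth and scaling with *Nnt*. The highest Pearson's r belonged to *Ears2*, the mitochondrial glutamyl-tRNA synthetase (0.63, Spearman's rho 0.62), *Baz1a* (0.61, rho 0.63), *Tor1aip2* (0.59, rho 0.49), *Pask* (0.57, rho 0.53) and *Bcl2l12* (0.57, rho 0.50). The lowest belonged to *Fbxl8* (-0.62, rho -0.64), *Rabac1* (-0.60, rho -0.62), *Lmbrd1* (-0.60, rho -0.60), *Tada3* (-0.59, rho -0.60) and *Ndrg3* (-0.58, rho -0.55). None of these 10 lies on chromosome 13. *Ears2* and *Tada3* passed the genotype threshold, as did 4.43% of all genes tested, and the rest of the 10 did not. They fell by 0.15 (SE 0.040, edgeR adjusted p = 0.0163) and by 0.17 (edgeR adjusted p = 2.04e-07) in Het mice. The *Ears2* call was lost without the 3 libraries that stood apart (-0.13, edgeR adjusted p = 0.0559). Over the 10 group means, which follow age, *Kbtbd4*, *Krit1* and *Gpbp1l1* were closest to *Nnt*, each with r = 0.99.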

How the data were processed

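The authors trimmed the reads with Trimmomatic, checked them with FastQC, aligned them to GRCm38 with STAR and deposited fragment counts per gene from featureCounts (1.4.6-p2). No strand was used, and a fragment over several genes was counted for each. Of 55487 gene IDs, 55141 matched GENCODE vM21. Protein-coding genes (21897) with 10 counts in at least 5 libraries, by the edgeR filter, left 16330 for testing. TMM-scaled counts were tested with the quasi-likelihood test of edgeR (4.0.16, R 4.3.3), with genotype and age for the main comparison and 10 groups for each age, the interaction and consecutive ages (mean over genotypes), adjusted by Benjamini-Hochberg over all genes tested, at a threshold of 0.05. Log2 CPM used a prior count of 2, and genes of similar level lay within 0.5 of the gene compared on that scale. Single values were tested by exact permutation within an age, or by 100000 permutations over ages. Figures and levels were computed with Python (3.11.15), numpy (2.4.6), pandas (2.3.3) and scipy (1.17.1). The fit was tested on simulated data, and no result of that test is given or relied on here. Intervals cover counting error only. No 2 libraries of a group agreed within sampling noise. The genes named are *Nnt*, the targeted gene, the substrain genes, tested genes within 1 Mb and pathway genes past the threshold. The other genes of mitochondrial NADPH supply and the most abundant members of cell type lists are also named. So are the 5 genes with the highest and the 5 with the lowest likeness to *Nnt*, and the 3 closest over group means. *Mthfd1l*, *Sod2*, the cell type markers given by genotype, *G6pdx*, *Taldo1* and *Tkt* were named after their values were seen. The members and lists were chosen with earlier results of these data known. Alternatives were DESeq2 (1.42.0) and limma-voom (limma 3.58.1), other scalings and filters, and leaving out libraries.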

Additional observations from a re-analysis of the deposited data

Results flagged for a closer look

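In *Nnt*, *Setd1a*, *Wdfy1*, *Gabra2*, *Ide*, *Crb1* and *Cyfip2*, the highest or lowest of the 5 libraries of a group was compared with its nearest neighbour, as the share of the group's range that lies between them. Of 70 groups 8 had a library farther out than Dixon's limit for 5 samples, a limit that chance passes in about 1 in 20 groups. *Nnt* had 1 of these: Het replicate 5 at P70 was low, at 18.8 CPM, with a share of 0.986. In *Wdfy1*, WT replicate 4 at E18 (0.881) and WT replicate 3 at P7 (0.832) were high, and WT replicate 5 at P70 (0.889) was low. WT replicate 2 at P7, which stood apart in its cell type markers, was high in *Gabra2* (0.749) and low in *Cyfip2* (0.874). In *Ide*, Het replicate 3 at E14 (0.787) and WT replicate 4 at P35 (0.8003) were low.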

How the results depend on the processing

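The *Nnt* difference over all ages ran from 0.04 to 0.08 under other settings (adjusted p 0.591 to 0.882) and from 0.03 to 0.07 without 1 library (0.695 to 0.909). The settings without the 3 libraries that stood apart (E14 WT replicate 5, E18 WT replicate 2, P7 WT replicate 2) and with the nested ID were chosen after seeing the data. The cause of the changes below was not tested. Genes of low level gave no value under a filter of 10 CPM.

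*Nnt* at P7 turned to 0.0077 without the 3 libraries in edgeR and to 0.0058 in the permutation test; without 1 library these ran from -0.1449 to 0.0068 and from -0.1449 to 0.0058. At P35 they ran from -0.0004 to 0.16 and from -0.0009 to 0.15. *Cyfip2* turned to -0.0113 without the 3 libraries (without 1 library, -0.0037 to 0.0218), *Nlrp12* to 0.0163 with limma-voom (-0.23 to 0.0054), and *Mrps30* to 0.0016 without the 3 libraries. *Entpd4* turned to -0.0088 with library size only, -0.0211 without the 2 *Xist* libraries and -0.0157 without the 3, and ran from -0.0275 to 0.0592 without 1 library. *Paip1* turned to 0.0032 with DESeq2 size factors in edgeR, 0.0010 at 10 CPM, 0.0032 with DESeq2, 0.0114 without the 2 *Xist* libraries and 0.0108 without the 3, and ran from -0.0061 to 0.0064 without 1 library.

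Genes of cytosolic NADPH supply past the threshold were 1 with library size only and 1 with limma-voom (without 1 library, 1 to 2, against 2). Substrain expression reports were 0 with all annotated genes and 0 with limma-voom (0 to 1, against 1), and cell type markers 1 with DESeq2 (0 to 1, against 0). The share of tested genes past the threshold for the interaction was 0.129% with DESeq2, 0.0732% without the 2 *Xist* libraries and 0.293% without the 3 (without 1 library, 0.00% to 0.0305%, against 0.00%). At E14 it was 0.0184% with library size only, 0.0745% at 10 CPM, 0.0473% with all annotated genes, 0.698% with DESeq2, 4.85% without the 2 and 7.11% without the 3 (0.00609% to 4.55%, against 0.129%). At E18 it was 0.0579% at 10 CPM, 0.0612% with limma-voom, 0.680% with DESeq2, 0.469% without the 2 and 1.17% without the 3 (0.0426% to 0.920%, against 0.110%). At P7 it was 0.488% at 10 CPM, 0.0980% with limma-voom and 0.0549% without the 3 (0.0427% to 1.29%, against 0.735%). At P35 it was 0.0122% with DESeq2 size factors in edgeR, 0.00828% at 10 CPM, 0.00860% with all annotated genes, 0.0674% with DESeq2, 0.0183% without the 2 and 0.0305% without the 3 (0.00% to 0.0305%, against 0.00%). At P70 it was 0.472% with DESeq2 (0.0426% to 0.560%, against 0.233%). With age as a covariate it ran from 3.38% to 5.36% under other settings, against 4.43%.

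Replicate numbers were not taken to pair the libraries, since 9 of 25 WT and Het pairs, not all, had deviations correlated above 0.1 (r from -0.20 to 0.46, median 0.06); 17 of 50 libraries correlated best with their own number, where chance gives 10, which is a hint from the data and not from the design. With the replicate block the *Nnt* difference was 0.04 (adjusted p = 0.798), and the share of genes past the threshold was 4.81% by genotype, 0.0184% for the interaction, 0.227% at E18, 0.122% at P7 and 0.0184% at P35. Depth limits the description of *Nlrp12* and *Entpd4*.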
